A study of Mus musculus with 6 samples.

Results

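A set of 10 genes for RNA-binding and splicing regulators that are used mainly by neurons were followed across the samples of this series. They were taken by name from the deposited tables: *Elavl2*, *Elavl3*, *Elavl4*, *Nova1*, *Nova2*, *Rbfox1*, *Rbfox2*, *Rbfox3*, *Celf4* and *Ptbp2*, which are 10 of 49568 gene names. All 10 had reads in all 6 samples and entered the test with 17614 genes in all, so none was lost to a filter on low values. The study sequenced RNA from neurons of the preBötzinger complex (preBötC), the brainstem site that generates the rhythm of inspiration, in newborn mice. It compared 3 Dbx1 samples with 3 non-Dbx1 samples, each a pool of 15 neurons drawn into a micropipette from 1 mouse at postnatal day 2, and each from a different mouse. Animals of both groups were Dbx1CreERT2; Rosa26tdTomato offspring of dams given tamoxifen during gestation, so that cells descended from progenitors active for *Dbx1* at that time carried the red fluorescent protein tdTomato. Dbx1 neurons were cells with this label. Non-Dbx1 neurons were somata judged neuronal by eye that lacked it, a mixed group that could include Dbx1-derived cells in which recombination had failed.

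The values are RPKM, reads per kilobase of exon relative to the total reads of the sample on genes, and they were not scaled further. That total, worked out from the spacing of low RPKM values, ran from 6464675 to 9432958. All 6 neuron markers examined, led by *Tubb3*, had reads in all samples, with a summed RPKM of 1346 to 2199 in the Dbx1 samples and 1305 to 1820.0 in the non-Dbx1 samples. Of the 6, only *Eno2*, named after its values were seen, had groups that did not overlap. It was higher in every Dbx1 sample, with mean log2(RPKM + 1) higher by 0.51 (limma FDR = 0.912). Of all tested genes, 5.35% were higher in every Dbx1 sample. The difference in mean log2(RPKM + 1), Dbx1 minus non-Dbx1, was above 0 for 5 of the 6 markers and −0.27 for *Syn1*.

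RNA-binding proteins of this kind set which exons a neuron keeps and how long its messages last. The Elavl proteins (also called Hu proteins) bind AU-rich and U-rich elements, stabilise messages and alter splicing. Nova proteins bind clusters of YCAY through KH domains. Rbfox proteins bind UGCAUG and promote or repress an exon depending on the side of it they bind. Celf4 binds the 3′ ends of many messages for synaptic proteins. Ptbp2, the neuronal polypyrimidine tract protein, replaces Ptbp1 as progenitors become neurons and holds back exons of the mature neuron until later. *Rbfox3* encodes the antigen NeuN, by which neurons are commonly recognised in tissue.

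Because families of close relatives are compared here, the exact stretches that paralogues share are shown first, as read from the coding parts of GENCODE vM21 transcripts on GRCm38 (mm10), 5′ to 3′ along the transcript, all in lower case since no base within them differs. The longest stretch shared by *Elavl3* (chr9:22018600-22018628, minus strand) and *Elavl4* (chr4:110206429-110206457, minus strand) had 29 bases, and that shared by *Elavl2* (chr4:91264054-91264076, minus strand) and *Elavl4* (chr4:110213190-110213212, minus strand) had 23. *Rbfox1* and *Rbfox2* shared 29 bases that cross an exon junction in both genes, so that their ends lie 1821 bases apart on chr16:7292251-7294071 (plus strand) and 2666 bases apart on chr15:77102938-77105603 (minus strand). *Nova1* (chr12:46700416-46700430, minus strand) and *Nova2* (chr7:18926046-18926060, plus strand) shared 15 bases of a CAG-rich repeat.
Elavl3 and Elavl4: ttcggcttcgtcaccatgaccaactacga
Elavl2 and Elavl4: accatgacccagaaggagctgga
Rbfox1 and Rbfox2: accgtggtagagggccgtaaaatcgaggt
Nova1 and Nova2: gcagcagcagcagcc

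The remaining pairs within a family shared 14 to 20 coding bases at most. Over whole transcripts, untranslated parts included, no word of 50 bases, about the length of a read, in *Elavl2*, *Elavl4*, *Rbfox1*, *Rbfox2*, *Rbfox3* or *Ptbp2* recurred in a transcript of another gene. The share of such words was 0.203% in *Celf4*, 3.13% in *Elavl3* and 3.002% in *Nova1*, where all of them belonged to Gm33869. In *Nova2* the share was 30.8%. There, exons of Gm26821 on the opposite strand covered 2652 of the 8372 exonic bases (31.7%), and the authors counted without regard to strand. Gm26821 was listed at 0 in all 6 samples. Reads from the shared stretch cannot be told apart, and the RPKM of *Nova2* is uncertain for this reason. No exon of another gene in the tables overlapped those of the other 9 genes.

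By deposited RPKM, the 10 genes spanned a 30.4-fold range of means, and the members of each family were unequal (mean over 6 samples). This range and the ranks that follow depend on the exon length used. *Celf4* was highest at 154.6, which ranked 237 among all gene names, followed by *Rbfox1* at 66.6, *Nova1* at 35.4, *Elavl3* at 34.0, *Elavl4* at 21.9, *Rbfox3* at 18.2, *Ptbp2* at 15.0, *Elavl2* at 12.8, *Rbfox2* at 5.27 and *Nova2* at 5.08. The median over the 10 genes was 20.1, against 3.32 over all tested genes. In this order only *Celf4* and *Rbfox1* had ranges that did not overlap. For each of the other 8 pairs of neighbours the ranges over the 6 samples overlapped. Even so, *Rbfox1* was above *Nova1* and *Elavl2* above *Rbfox2* within 6 of 6 samples, and neither order was tested. The plot of RPKM by sample shows these levels.

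**Figure D1:**
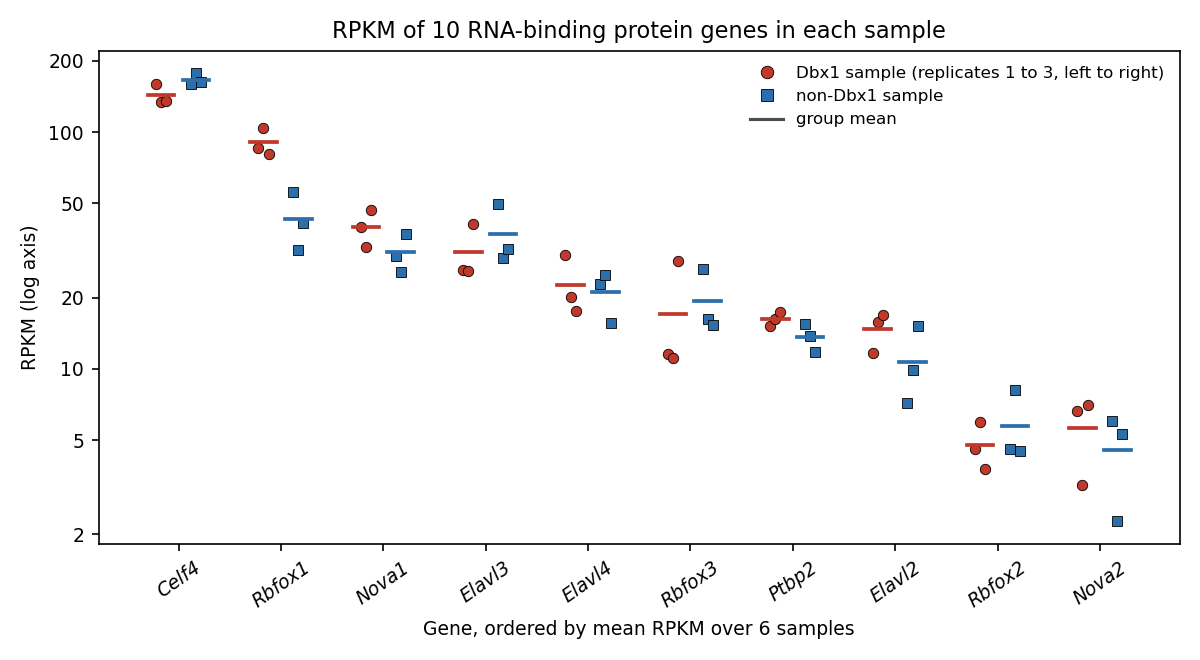
RPKM of the 10 genes on a log axis, ordered by mean, with each Dbx1 sample as a circle, each non-Dbx1 sample as a square and group means as lines. Circles and squares overlap for 9 genes, and for Rbfox1 the 3 circles, from 80.8 to 104.3, lie above the 3 squares, from 31.7 to 56.0.

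Between Dbx1 and non-Dbx1 neurons, *Rbfox1* was the only 1 of the 10 genes whose groups did not overlap, and none passed the test across all genes. L2FC is the mean log2(RPKM + 1) of the Dbx1 samples minus that of the non-Dbx1 samples. In limma, 0 of the 10 had an FDR under 0.1, against 0.00% of all tested genes higher in Dbx1 samples and 0.00568% higher in non-Dbx1 samples, and the FDR ranged from 0.724 to 0.987. At the same FDR threshold, the authors' DESeq2 test of counts called genes higher in each group. With so few genes called by limma, 0 of 10 cannot show that these genes do not differ. One of the 10 had an unadjusted limma p under 0.05, against 5.20% of all tested genes (2.73% with Dbx1 higher and 2.48% with non-Dbx1 higher), and limma-voom on recovered reads gave the same counts of 0 and 1. The groups did not overlap for 1 of 10, against 10.6% of all tested genes, which is near that background. The sign of L2FC was positive for 6 genes and negative for 4, with a median of 0.16 against 0.01 over all tested genes. The 95% interval included 0 for 9 of the 10 genes. Since each sample pools 15 neurons, fewer cells that express a gene and less RNA per cell cannot be told apart.

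**Figure D2:**
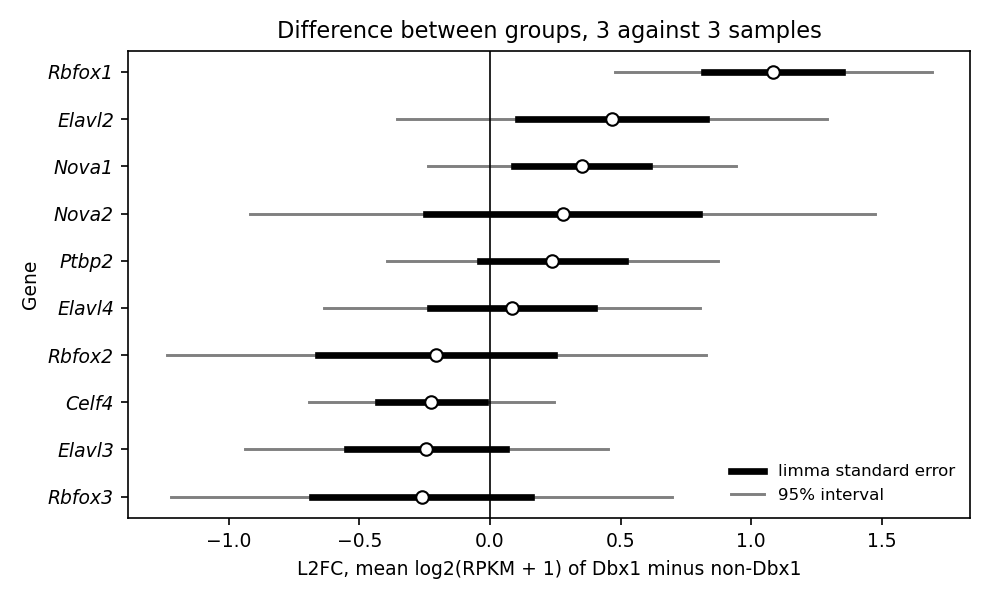
L2FC of each gene (Dbx1 minus non-Dbx1, on the log2(RPKM + 1) scale) with the limma standard error as a thick line and the 95% interval as a thin line, from 3 samples a group. Rbfox1 at 1.08 is the only gene whose interval, from 0.48 to 1.69, lies to one side of 0.

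Among the 7 pairs of paralogues within the 10 genes, *Rbfox1* and *Rbfox2* differed most in level. *Rbfox1* (ENSMUSG00000008658, chr16:5885355-7411526, plus strand) measured 85.9, 104.3 and 80.8 RPKM in Dbx1 neurons against 56.0, 31.7 and 41.1 in non-Dbx1 neurons. Every Dbx1 sample lay above every non-Dbx1 sample, with means of 90.3 ± 12.4 and 43.0 ± 12.2 (SD, n = 3), a ratio of 2.10. The L2FC was 1.08 (standard error 0.265, limma p = 0.00313, FDR = 0.724), and the exact two-sided permutation test gave p = 0.10, the smallest that 3 against 3 allow. By limma p it ranked 72 of 17614. Its reads numbered 1161 to 3357 per sample, so that counting error was at most 2.93%, well under the 13.7% and 28.5% by which samples of the Dbx1 and non-Dbx1 groups varied. Such counting errors are lower bounds, because copies made during amplification are counted as separate reads.

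*Rbfox2* (ENSMUSG00000033565, chr15:77078990-77307004, minus strand), which is also used outside the nervous system, measured 4.58, 5.95 and 3.77 RPKM in Dbx1 neurons against 4.60, 8.16 and 4.52 in non-Dbx1 neurons. The highest value came from non-Dbx1 replicate 2 and the other 5 lay between 3.77 and 5.95, with an L2FC of −0.20 (standard error 0.452, limma FDR = 0.979). *Rbfox3* (ENSMUSG00000025576, chr11:118489762-118911597, minus strand) measured 11.5, 11.1 and 28.6 RPKM in Dbx1 neurons against 26.4, 16.3 and 15.3 in non-Dbx1 neurons. One sample of each group, Dbx1 replicate 3 and non-Dbx1 replicate 1, stood at 26.4 or more and the rest at 16.3 or less, so the NeuN transcript varied more within groups than between them. Its L2FC was −0.26 (standard error 0.419, limma FDR = 0.968), and its SD within groups of 0.594 on the log2 scale was the largest of the 10 genes.

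Within each sample *Rbfox1* was above *Rbfox3* and *Rbfox3* above *Rbfox2*. The within-sample difference of log2(RPKM + 1) was 3.35 ± 0.863 for *Rbfox1* against *Rbfox2*, 1.79 ± 0.933 for *Rbfox1* against *Rbfox3* and −1.56 ± 0.754 for *Rbfox2* against *Rbfox3* (SD over 6 samples). Each order held in 6 of 6 samples, with an adjusted p of 0.0365 in the exact sign-change test, two-sided, over the 7 pairs of paralogues compared. The unadjusted p was 0.03125, the smallest that 6 samples allow.

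The 2 ratios with *Rbfox1* also separated the groups. For *Rbfox1* against *Rbfox2* the difference was 3.96, 3.92 and 4.10 in Dbx1 neurons against 3.35, 1.84 and 2.93 in non-Dbx1 neurons. All Dbx1 samples were higher, by 1.29 on average, with an SD of 0.0940 among the Dbx1 samples and 0.780 among the non-Dbx1 samples. For *Rbfox1* against *Rbfox3* it was 2.79, 3.13 and 1.47 against 1.06, 0.92 and 1.37, higher by 1.34 in Dbx1 samples, with the nearest samples of the 2 groups close together. Each gave p = 0.10 in the exact permutation test, the smallest possible, and 0.35 adjusted over the 7 pairs, so neither passed. Both share *Rbfox1* and are not separate evidence. The ratio of *Rbfox2* to *Rbfox3* overlapped between groups, with a difference of 0.06 (exact permutation p = 0.90).

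**Figure D3:**
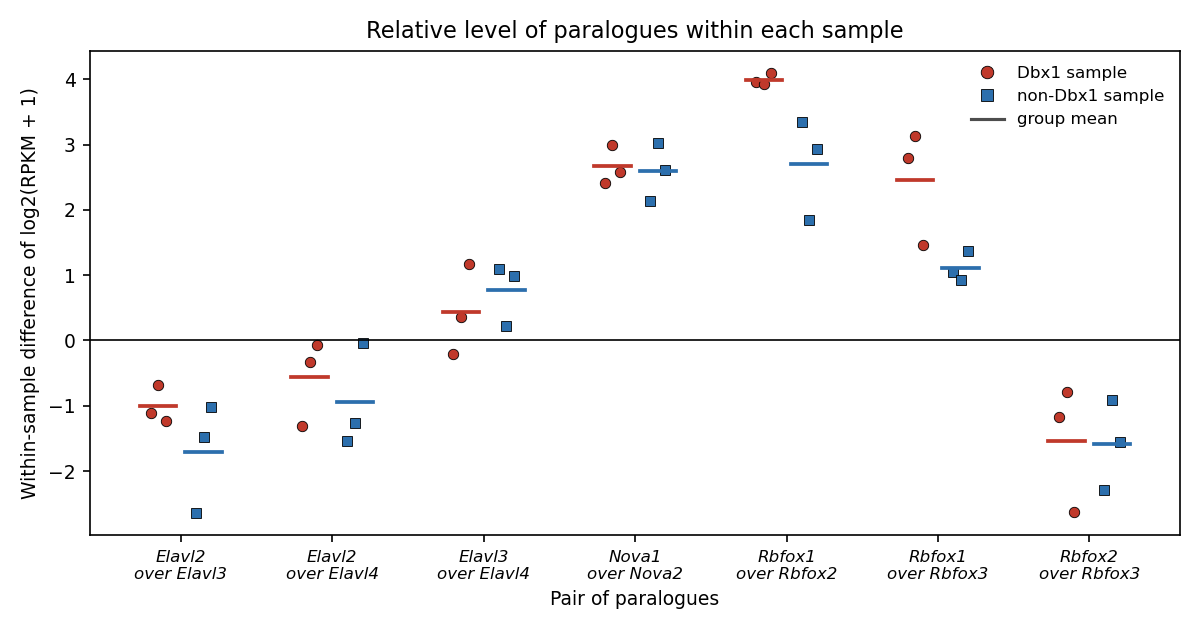
Difference of log2(RPKM + 1) between paralogues within each sample, for 7 pairs, with Dbx1 samples as circles, non-Dbx1 samples as squares and group means as lines. The groups separate for Rbfox1 over Rbfox2 and Rbfox1 over Rbfox3 and overlap for the other 5 pairs.

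Levels of markers of other cell types varied between the same samples, but none of those below had a limma FDR under 0.1. The groups did not overlap for 10.6% of all tested genes. Of 8 oligodendrocyte lineage markers, *Mbp* had groups that did not overlap, higher in non-Dbx1 samples, and the summed RPKM of the 8, with *Olig1* highest on average, was 17.7 to 72.7 in Dbx1 neurons against 318, 42.9 and 51.7 in non-Dbx1 neurons. Of 5 erythroid markers, 4 were higher in every non-Dbx1 sample, with a sum of 90.3 to 507 in Dbx1 neurons against 14058, 1198 and 733 in non-Dbx1 neurons, led by *Hbb-bs* at 7238 in non-Dbx1 replicate 1. The 5 endothelial markers summed to 71.5 in non-Dbx1 replicate 2, where *Cldn5* was 63.7, and to at most 3.13 elsewhere. The 6 astrocyte markers, of which *S100b* was highest, summed to 34.7 to 59.6 in Dbx1 and 52.4 to 81.2 in non-Dbx1 samples, with *Gfap* higher in every Dbx1 sample and *Slc1a3* in every non-Dbx1 sample. The 6 microglial markers, of which *Aif1* was highest, summed to at most 2.97, with *Itgam* and *Tmem119* listed at 0 in all samples. Without non-Dbx1 replicate 1 the L2FC of *Rbfox1* was 1.29, and without non-Dbx1 replicate 2 it was 0.89. The part of the other cell types' RNA in the difference was not tested.

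For all 3 neuronal Elavl genes the groups overlapped. *Elavl2* (ENSMUSG00000008489, chr4:91250763-91400785, minus strand), or HuB, measured 11.7, 15.8 and 16.8 RPKM in Dbx1 neurons against 7.16, 9.88 and 15.2 in non-Dbx1 neurons. The 2 lowest values were non-Dbx1, but non-Dbx1 replicate 3 lay among the Dbx1 samples, and the means were 14.8 ± 2.73 and 10.7 ± 4.08 (SD, n = 3). Its L2FC of 0.47 was the second largest of the 10 (standard error 0.360, 95% interval −0.36 to 1.29, limma FDR = 0.943). *Elavl3* (ENSMUSG00000003410, chr9:22015005-22052023, minus strand), or HuC, measured 26.2, 26.0 and 40.9 RPKM in Dbx1 neurons against 49.9, 29.3 and 32.0 in non-Dbx1 neurons. Its highest value came from non-Dbx1 replicate 1 and the next from Dbx1 replicate 3, the same 2 samples that were highest for *Rbfox3*, and its L2FC was −0.24 (standard error 0.304, limma FDR = 0.960). *Elavl4* (ENSMUSG00000028546, chr4:110203722-110351909, minus strand), or HuD, measured 30.4, 20.1 and 17.6 RPKM in Dbx1 neurons against 22.8, 25.0 and 15.7 in non-Dbx1 neurons. The highest and the second lowest values were both Dbx1, and the L2FC of 0.08 was the smallest in size (standard error 0.315, limma FDR = 0.987).

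By deposited RPKM, *Elavl2* was below *Elavl3* by 1.36 ± 0.680 and below *Elavl4* by 0.76 ± 0.685 on the log2 scale, in 6 of 6 samples each (exact sign-change test, adjusted p = 0.0365). *Elavl3* was above *Elavl4* by 0.60 ± 0.560 in 5 of 6 samples (exact sign-change test, adjusted p = 0.0625), Dbx1 replicate 1 being the exception. None of the 3 ratios separated the groups (exact permutation p = 0.30 to 0.80). The ubiquitous relative *Elavl1* (HuR) had a mean of 7.96 deposited RPKM, below each of the 3 neuronal genes in 6 of 6 samples. Its level by merged exon length was not compared.

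These orders depended on the exon length used. Reads could be recovered from the RPKM steps, and with them the exon length by which the authors divided. That length was 18718 bases for *Elavl2* and 13073 for *Elavl4*, whereas their exons, counted once where they overlap, come to 8313 and 5387 bases in GENCODE vM21. The authors' length was thus 2.25 and 2.43 times the merged one for these genes, and 1.15 times for *Elavl3*, so deposited RPKM placed *Elavl2* and *Elavl4* low beside *Elavl3*. With merged lengths the means were 28.7 for *Elavl2*, 39.1 for *Elavl3* and 53.2 for *Elavl4*. *Elavl4* was then above *Elavl3* in 4 of 6 samples (exact sign-change test, adjusted p = 0.219), the reverse of the order above, and *Elavl2* against *Elavl3* no longer passed (adjusted p = 0.146), while *Elavl2* below *Elavl4* and the 4 Nova and Rbfox orders passed at an adjusted p of 0.0438. Comparisons between groups use the same length on both sides, so it enters them only through the added 1 of log2(RPKM + 1). The difference between groups in the log2 ratio of *Elavl2* to *Elavl3*, for example, was 0.71 with deposited RPKM and 0.73 with merged lengths.

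**Figure D4:**
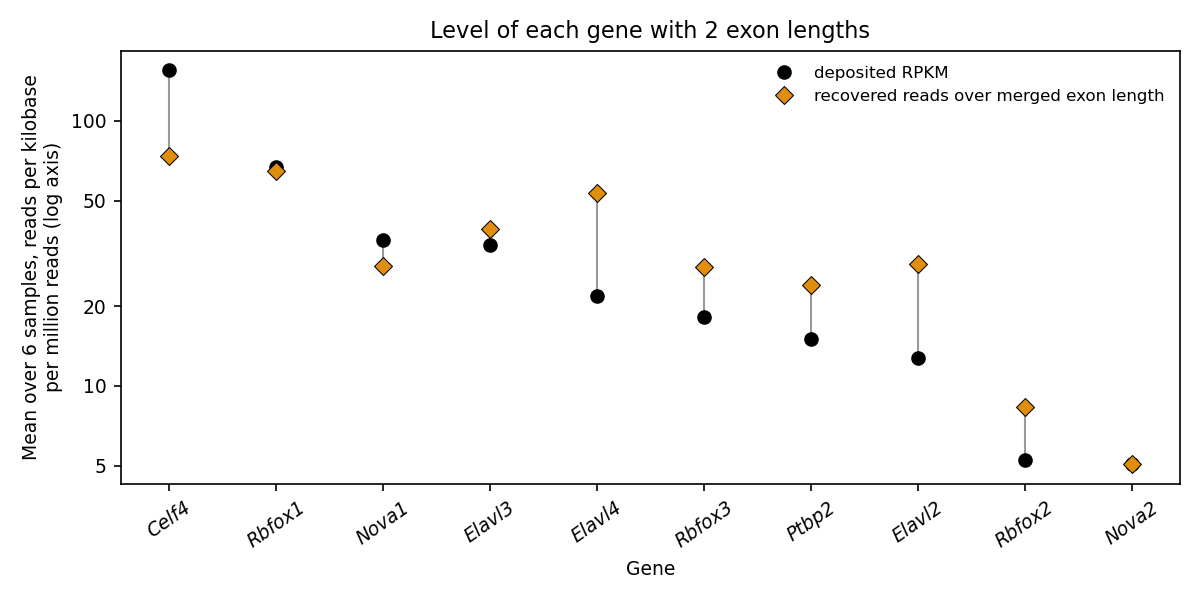
Mean over 6 samples of each gene as deposited RPKM (circles) and as the recovered reads over merged GENCODE vM21 exon length in the same unit (diamonds), on a log axis. Elavl4 moves from 21.9 to 53.2 and Elavl2 from 12.8 to 28.7, and Elavl4 passes Elavl3.

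For the other genes the authors' length was 0.80 times the merged one in *Nova1*, the same in *Nova2*, 0.97 in *Rbfox1*, 1.58 in *Rbfox2*, 1.55 in *Rbfox3*, 1.597 in *Ptbp2* and 0.48 in *Celf4*. The recovered reads are the smallest whole numbers that fit and could be a fraction of the true ones, so the merged-length level of *Celf4*, 73.5, is a lower value and not a point estimate. By merged length *Celf4* and *Rbfox1* were still first and second, and *Rbfox2* and *Nova2* still last.

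The 2 Nova genes differed in level, and both they and their ratio overlapped between groups. *Nova1* (ENSMUSG00000021047, chr12:46694517-46818929, minus strand) measured 39.7, 32.7 and 47.0 RPKM in Dbx1 neurons against 30.0, 25.8 and 37.3 in non-Dbx1 neurons. The 2 lowest values were non-Dbx1 and the 2 highest Dbx1, with Dbx1 replicate 2 below non-Dbx1 replicate 3. The means were 39.8 ± 7.16 and 31.0 ± 5.83 (SD, n = 3), with an L2FC of 0.35 (standard error 0.258, limma FDR = 0.940). *Nova2* (ENSMUSG00000030411, chr7:18925888-18965319, plus strand) measured 6.65, 3.22 and 7.02 RPKM in Dbx1 neurons against 6.04, 2.28 and 5.29 in non-Dbx1 neurons. Replicate 2 of each group was the lowest, and the groups overlapped (L2FC 0.28, standard error 0.523, limma FDR = 0.972). Its 163 to 443 reads per sample were the fewest of the 10 genes, with a counting error of up to 7.83%.

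*Nova1* was above *Nova2* by 2.63 ± 0.343 on the log2 scale in 6 of 6 samples (exact sign-change test, adjusted p = 0.0365). If no read of *Nova2* was counted over the stretch that Gm26821 covers, its level over the remaining 5720 bases was 7.44, against 28.4 for *Nova1* by merged length, and the order was unchanged in those samples (difference 1.85). The log2 ratio of *Nova1* to *Nova2* was 2.66 ± 0.302 in Dbx1 neurons against 2.59 ± 0.446 in non-Dbx1 neurons, a difference of 0.07 (exact permutation p = 1).

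*Celf4* (ENSMUSG00000024268, chromosome 18), at the top of the 10 genes, was also the steadiest. It measured 159.58, 133.5 and 135.0 RPKM in Dbx1 neurons against 159.50, 177.2 and 162.7 in non-Dbx1 neurons. Dbx1 replicate 1 and non-Dbx1 replicate 1 were practically equal, and but for this pair every non-Dbx1 sample was above every Dbx1 sample. The means were 142.7 ± 14.6 and 166.5 ± 9.46 (SD, n = 3), with an L2FC of −0.22 (standard error 0.205, 95% interval −0.69 to 0.24, limma FDR = 0.951). Its SD within groups, 0.116 on the log2 scale, was smaller than that of 98.6% of the 4424 tested genes with a mean RPKM of at least 10. Of the other Celf genes, *Celf6* was highest with a mean of 16.9 RPKM, and *Celf4* exceeded each of *Celf1*, *Celf2*, *Celf3*, *Celf5* and *Celf6* in 6 of 6 samples. This order is by deposited RPKM, and levels of the other Celf genes by merged exon length were not compared.

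*Ptbp2* (ENSMUSG00000028134, chr3:119718742-119784466, minus strand) measured 15.2, 16.3 and 17.4 RPKM in Dbx1 neurons against 15.5, 13.8 and 11.7 in non-Dbx1 neurons. The 2 highest values were Dbx1 and the 2 lowest non-Dbx1, with 1 pair of samples crossed, and the L2FC was 0.24 (standard error 0.277, 95% interval −0.39 to 0.87, limma FDR = 0.960). Its SD within groups of 0.148 was the second smallest of the 10. *Ptbp1*, the form of progenitors and glia, had a mean of 1.12 RPKM and a highest value of 2.69, and *Ptbp2* exceeded it in 6 of 6 samples, with means 13.4-fold apart. *Ptbp3* was lower still, at a mean of 0.509. These comparisons use deposited RPKM, and levels of *Ptbp1* and *Ptbp3* by merged exon length were not compared.

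Summed over the 10 genes, RPKM was 391, 369 and 395 in Dbx1 neurons against 378, 340 and 341 in non-Dbx1 neurons, so the groups overlapped. Dbx1 replicate 3 had the most genes above their own mean over the samples, 7 of 10, and non-Dbx1 replicate 2 the fewest, 3 of 10. The median SD within groups of the 10 genes was 0.359 on the log2 scale, against 0.435 for tested genes with a mean RPKM of at least 10.

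Other regulators of RNA were examined as lists, and in each of them 0 genes had a limma FDR under 0.1. Of 8 further Elavl, Ptbp and Celf genes, 2 had an L2FC above 0 and 6 below, from −0.40 for *Ptbp1* to 0.32 for *Celf2*, with a median of −0.14 and 0 genes whose groups did not overlap. Of 14 other tissue-restricted splicing regulators, 11 were tested, with a median L2FC of 0.13 and a range from −0.63 for *Msi2* to 1.53 for *Rbm24*, a muscle regulator whose RPKM ran from 0 to 28.3. The highest of this list was *Khdrbs3* (SLM-2), with a mean of 34.1 RPKM. The epithelial splicing factors *Esrp1* and *Esrp2* had means of 0.00353 and 0.704 RPKM, and *Mbnl3* had a mean of 0.0211. *Esrp2* was above 0 only in Dbx1 replicate 3, at 1.22 RPKM, and in non-Dbx1 replicate 1, where it was higher. None of these genes was tested.

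Both *Mbnl1* and *Khdrbs2* of that list, singled out after their values were seen, had higher values in every Dbx1 sample. *Mbnl1*, a muscleblind splicing factor, measured 2.01, 2.25 and 2.14 RPKM in Dbx1 neurons against 0.470, 0.613 and 0.706 in non-Dbx1 neurons (L2FC 0.98, limma FDR = 0.912). *Khdrbs2* (SLM-1), which acts on neurexin exons, measured 9.08, 7.12 and 7.55 against 1.56, 3.60 and 5.61 (L2FC 1.06, limma FDR = 0.912). Across all tested genes, 5.35% had Dbx1 samples that were all higher and 5.24% had non-Dbx1 samples that were all higher.

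The broadly expressed factors had values on both sides of 0. The 13 SR proteins, many of which can activate exons, had a median L2FC of −0.08 and a range from −0.58 for *Srsf4* to 0.15 for *Srsf1*. They were led in level by *Srsf7* with a mean of 86.1 RPKM. *Srsf4* and *Tra2b* were higher in every non-Dbx1 sample, *Tra2b* being named after its values were seen. Of all tested genes, 5.24% were higher in every non-Dbx1 sample. The 15 hnRNP proteins had a median of −0.05 and ranged from −0.50 for *Hnrnph2* to 0.65 for *Hnrnph1*, with *Hnrnpc* highest at a mean of 39.0 RPKM and 0 genes whose groups did not overlap. Of 15 regulators of mRNA transport and translation, 14 were tested, with a median of 0.25 and a range from −1.24 for *Cpeb1* to 0.74 for *Tial1*. *Pabpc1*, the highest of them with a mean of 11.9 RPKM, was higher in every non-Dbx1 sample.

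**Figure D5:**
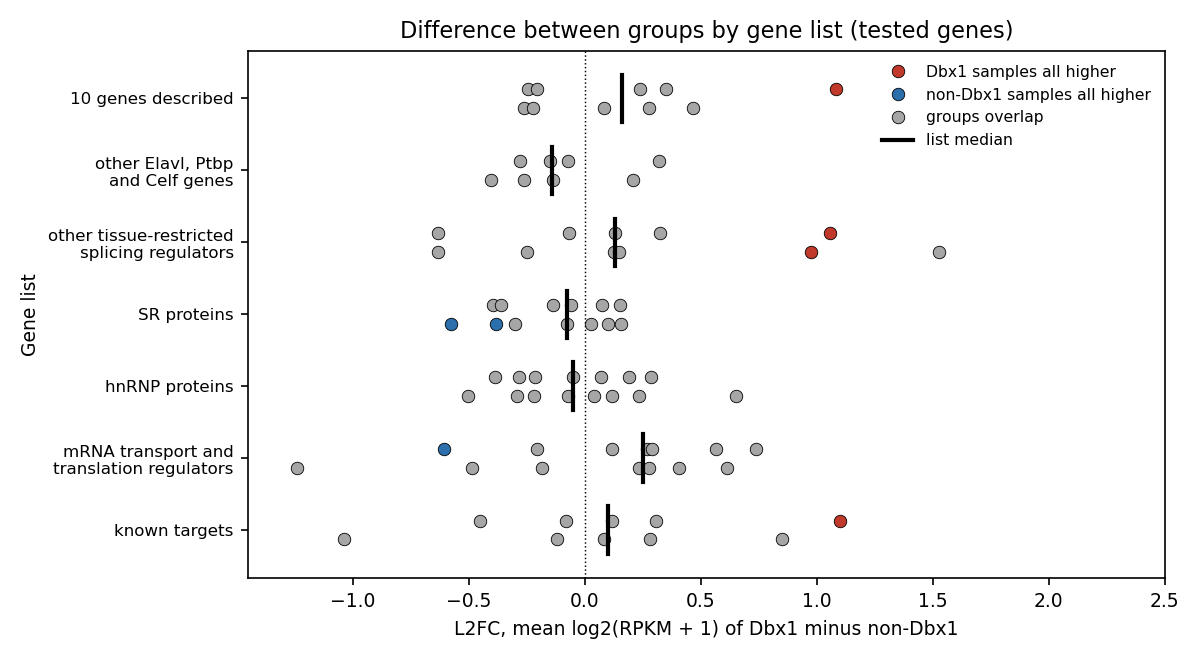
L2FC (Dbx1 minus non-Dbx1, log2(RPKM + 1) scale) of each tested gene in 7 lists, with list medians as bars and genes whose groups do not overlap in red (Dbx1 higher) or blue (non-Dbx1 higher). Medians lie between −0.14 and 0.25, and Rbfox1, Mbnl1, Khdrbs2 and Dab1 are the red points.

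Transcripts long known as targets of these proteins were present throughout, though total levels of a target do not show how it is spliced. Of 10 such genes, 6 had an L2FC above 0 and 4 below, with a median of 0.10 and 0 genes with a limma FDR under 0.1. *Gap43*, a growth-cone protein whose message is stabilised by HuD, was highest with a mean of 1010 RPKM. *Dlg4* (PSD-95), whose message Ptbp proteins keep unstable through an exon, was lowest in L2FC at −1.04, with values of 0.850, 1.34 and 2.36 RPKM in Dbx1 neurons against 5.59, 8.08 and 1.10 in non-Dbx1 neurons. *Dab1*, an adaptor of reelin signalling whose exons Nova controls, had the highest L2FC at 1.10 (standard error 0.313, limma FDR = 0.804). It measured 38.1, 35.4 and 34.7 RPKM in Dbx1 neurons against 20.5, 10.3 and 20.3 in non-Dbx1 neurons. Every Dbx1 sample was higher, as for 5.35% of all tested genes.

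The genes whose pattern over the 6 samples was nearest to that of 2 of the genes were found among 4417 candidates with a mean RPKM of at least 10, by the root mean square difference of centred log2(RPKM + 1). For *Rbfox1* they were *Gabrb1*, a GABA-A receptor subunit, at 0.179, *Dab1* at 0.206 and *Slc2a3*, the neuronal glucose transporter, at 0.212. Their L2FC of 1.22, 1.10 and 0.85, and the higher values of all 3 in every Dbx1 sample, follow from having been chosen for likeness to *Rbfox1*. For *Celf4* they were Gm10080 at 0.0700, *Elp5*, a subunit of the Elongator complex, at 0.0725 and the small GTPase *Hras* at 0.0748. Likeness was measured over 6 samples only and describes these libraries.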

How the data were processed

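RNA of pooled preBötC neurons was copied to cDNA with SMART-Seq v4 and made into Nextera libraries. The authors aligned single-end reads with TopHat2 to mm10, used SAMtools and HTSeq to count reads per gene name without strand, and deposited RPKM, computed with exon lengths from an Ensembl annotation whose release is not given in the sources used here. The authors tested counts with DESeq2. Here log2(RPKM + 1) was tested with limma 3.58.1 (trend) in R 4.3.3, 3 Dbx1 against 3 non-Dbx1 samples, two-sided, over genes above 0 in at least 3 samples, adjusted by the Benjamini-Hochberg method to an FDR threshold of 0.1. Paralogues were compared with exact permutation tests. Reads were recovered from RPKM steps, and 99.5% of non-zero values came out as whole reads. Of 11596 genes with over 100 reads in a sample, 99.3% had a length that came out whole within 0.01 bases. Positions came from GENCODE vM21. Alternatives covered pseudocount, filters, scaling, trend, the replicate number as a block, single samples left out and voom, and the merged exon lengths were added after seeing the data. Scripts were tested on simulated data. Named are the 10 genes and, per list, the highest in level, the extremes of L2FC and any gene past the FDR, with markers by their sums and highest gene, and the 3 nearest profiles of 2 genes. Other genes named (*Mbp*, *Gfap*, *Slc1a3*, *Itgam*, *Tmem119*, *Eno2*, *Syn1*, *Esrp1*, *Esrp2*, *Mbnl1*, *Mbnl3*, *Khdrbs2*, *Tra2b*) were chosen after their values were seen. The genes and lists were chosen with earlier results of these data known. Python 3.11.15 was used with numpy 2.4.6, pandas 2.3.3, scipy 1.17.1 and matplotlib 3.10.9. 1 marker gene is not reported here.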

Additional observations from a re-analysis of the deposited data

How the results depend on the processing

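In no alternative did any of the 10 genes reach a limma FDR under 0.1, and the L2FC of *Rbfox1* stayed between 0.89 and 1.29 with an FDR of 0.507 to 0.9996. The number of all genes past the FDR, 1 as reported, was 0 with a pseudocount of 0.1, 0 when a non-zero value in 1 sample was enough, 0 by voom on recovered reads, 3 without the trend and 0 to 1 with single samples left out. Genes of the 10 whose groups did not overlap numbered 2 with median-of-ratios size factors (*Rbfox1*, and *Celf4* with non-Dbx1 higher), 2 with quantile normalization (*Rbfox1* and *Ptbp2*) and 1 to 4 with single samples left out, when fewer samples make separation easier. *Rbfox1* was among them under both scalings, and leaving out a sample cannot make separate groups overlap. Without Dbx1 replicate 1 there were 4, and 3 each without Dbx1 replicate 2, Dbx1 replicate 3, non-Dbx1 replicate 1 and non-Dbx1 replicate 3.

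With the replicate number as a block (replicate block), 0 of all genes and 0 of the 10 passed. Each number occurs once in each group, so the block cannot change L2FC, and that of *Rbfox1* was again 1.08. The samples came from different mice. Deviations of samples with the same number correlated by −0.107, 0.0248 and −0.0522, and those with different numbers by −0.0824 to 0.133. The labels do not say whether samples with the same number were prepared together, and so few correlations cannot decide it.

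With single samples left out, L2FC ranged from −0.14 to 0.24 for *Elavl4*, from −0.062 to 0.58 for *Nova2* and from −0.35 to 0.036 for *Rbfox2*, turning sign for *Elavl4* without Dbx1 replicate 1 (−0.14) or non-Dbx1 replicate 3 (−0.11) and for both others without non-Dbx1 replicate 2. The median L2FC of the 10 genes was 0.02 without non-Dbx1 replicate 3 and 0.04 without Dbx1 replicate 1. The level of *Elavl3* against *Elavl4* reversed to −0.44 with merged exon length, with or without bases of other genes. Of the 7 level orders, 0 passed in either group alone, where 3 samples cannot reach the threshold, and 6 to 7 with single samples left out. The difference between groups of the ratio of *Nova1* to *Nova2* ranged from −0.15 to 0.29, being −0.09 without Dbx1 replicate 2, and that of *Rbfox2* to *Rbfox3* from −0.31 to 0.61, being −0.13 without Dbx1 replicate 1 and −0.30 in the absence of non-Dbx1 replicate 1. The 7 ratios gave 0 passes between groups throughout. Where no sample or length was named, the cause was not tested.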

Other observations

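The exon length behind RPKM differed from the merged length beyond the 10 genes. Over 11830 genes with more than 100 reads in a sample and a GENCODE vM21 name, the authors' length was 1.37 times the merged exon length at the median, and 1.02 times the sum of all distinct exon models. Among the 10147 genes for which those lengths differ, the authors' length equalled the merged one in 0.148% and the sum in 17.8%. The ratio varied between genes, from 0.48 for *Celf4* to 2.43 for *Elavl4* among the 10 genes, so levels of different genes in a sample depend on it. The recovered length of *Celf4* could be a fraction of the true one, so its ratio of 0.48 may be too low.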
